A study of Mus musculus with 12 samples.

Results

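The genes described here are the numbered members of 4 families of transcription factors, chosen by symbol: T-box genes (Tbx and a number), Sox genes (Sox and a number), Gata1 to Gata6, and LIM-homeobox genes (Lhx and a number). The rule found 46 genes among 50600 gene identifiers, 13 T-box, 19 Sox, 6 Gata and 8 Lhx genes, all protein coding. They were measured by RNA sequencing of polyadenylated RNA from medullary thymic epithelial cells (mTECs) of mice 6 to 8 weeks old. There were 6 libraries of MHC class II high cells, called mTEC hi, and 6 of MHC class II low cells, called mTEC lo. In each cell type 2 libraries came from Psmb11-deficient mice (KO, Psmb11-/-) and 2 from wild type mice (WT, Psmb11+/+), both under the strain name B6.B6CB-Psmb11tm1Smta. The other 2 libraries of each cell type, replicates 1 and 3 by title, carry one genotype in the title and the opposite one in the source name and strain. Those 4 libraries were used between cell types, and between genotypes only where said. Psmb11 encodes a proteasome subunit of cortical thymic epithelium, and the comparison asks whether its loss changes expression in mTECs. Separate or pooled animals are not stated, so the spread behind each p-value is that of these libraries and could be technical.

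Transcription factors of these families direct the building of organs and cell lineages in the embryo. T-box proteins act in heart, limb and palate, Sox proteins in cartilage, neural crest and neural precursors, Gata proteins in blood, heart and gut, and Lhx proteins in pituitary and neurons. Several also act in the immune system, where Tbx21 (T-bet) and Gata3 direct the main types of helper T cell. Mature mTECs, which express the regulator Aire, transcribe many genes of other tissues and present the products to developing T cells.

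Library totals ran from 38791960 to 86793594 gene reads. Psmb11 had 0.835 and 1.28 CPM (reads scaled to a common library size) in hi KO libraries, against 10.2 and 7.46 CPM in hi WT libraries. In mTEC lo it had 1.66 and 1.2 CPM in KO libraries, against 12.3 and 7.76 CPM in WT libraries. Its log2 fold change was -3.07 ± 0.31 (SE; edgeR quasi-likelihood test, adjusted p = 0.00457) in mTEC hi and -2.81 ± 0.29 (adjusted p = 0.00814) in mTEC lo. In the libraries with conflicting labels it followed the title, with 1.11 and 1.25 CPM where the title says KO and 8.03 and 7.1 CPM where the title says WT. Aire averaged 1950 ± 185 CPM in mTEC hi, against 17.7 ± 5.21 CPM in mTEC lo (SD over n = 6 libraries). Foxn1, the master regulator of thymic epithelium, had 203 to 220 CPM in mTEC hi, against 96.0 to 119 CPM in mTEC lo.

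Most of these transcription factor genes were higher in mTEC hi, and a small group led by Sox genes was lower. All 46 genes passed the filter on low counts, 14 of them through mTEC hi alone, so that a higher level in mTEC hi was part of how these 14 passed: Gata1, Gata5, Lhx2, Lhx3, Lhx4, Lhx8, Lhx9, Sox1, Sox14, Tbx4, Tbx5, Tbx10, Tbx19 and Tbx22. The exons of Gata3, Gata5, Gata6, Lhx3, Lhx5, Lhx6, Sox1, Sox4, Sox5, Sox8, Sox15, Sox17, Sox21, Tbx3 and Tbx18 overlap another annotated gene, and in these 15 genes reads of the overlap cannot be told apart without strand. Of the 46 genes, 34 were called higher and 8 lower in mTEC hi at an adjusted p below 0.05, and Gata6, Sox8, Sox15 and Tbx2 were not called. Among all 27502 genes tested 80.3% were called, 45.6% higher and 34.7% lower. The median log2 fold change of the 46 genes was 2.69, against 0.20 over all genes tested. Without the filter 33 were higher and 8 lower, with a median of 2.73, against 0.78 over 42255 genes. With scaling by library size alone 36 were higher and 7 lower; of all calls 70.2% were then higher, against 56.8% in the main scaling, and the median of all genes was 0.52. An 8-fold or larger rise was called for 21 of the 46 genes and for 21.3% of all genes tested. In 30 genes every mTEC hi library lay above every mTEC lo library, which 37.7% of all genes tested did. In 8 genes every mTEC hi library lay below every mTEC lo library, which 27.8% of all genes tested did.

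**Figure D1:**
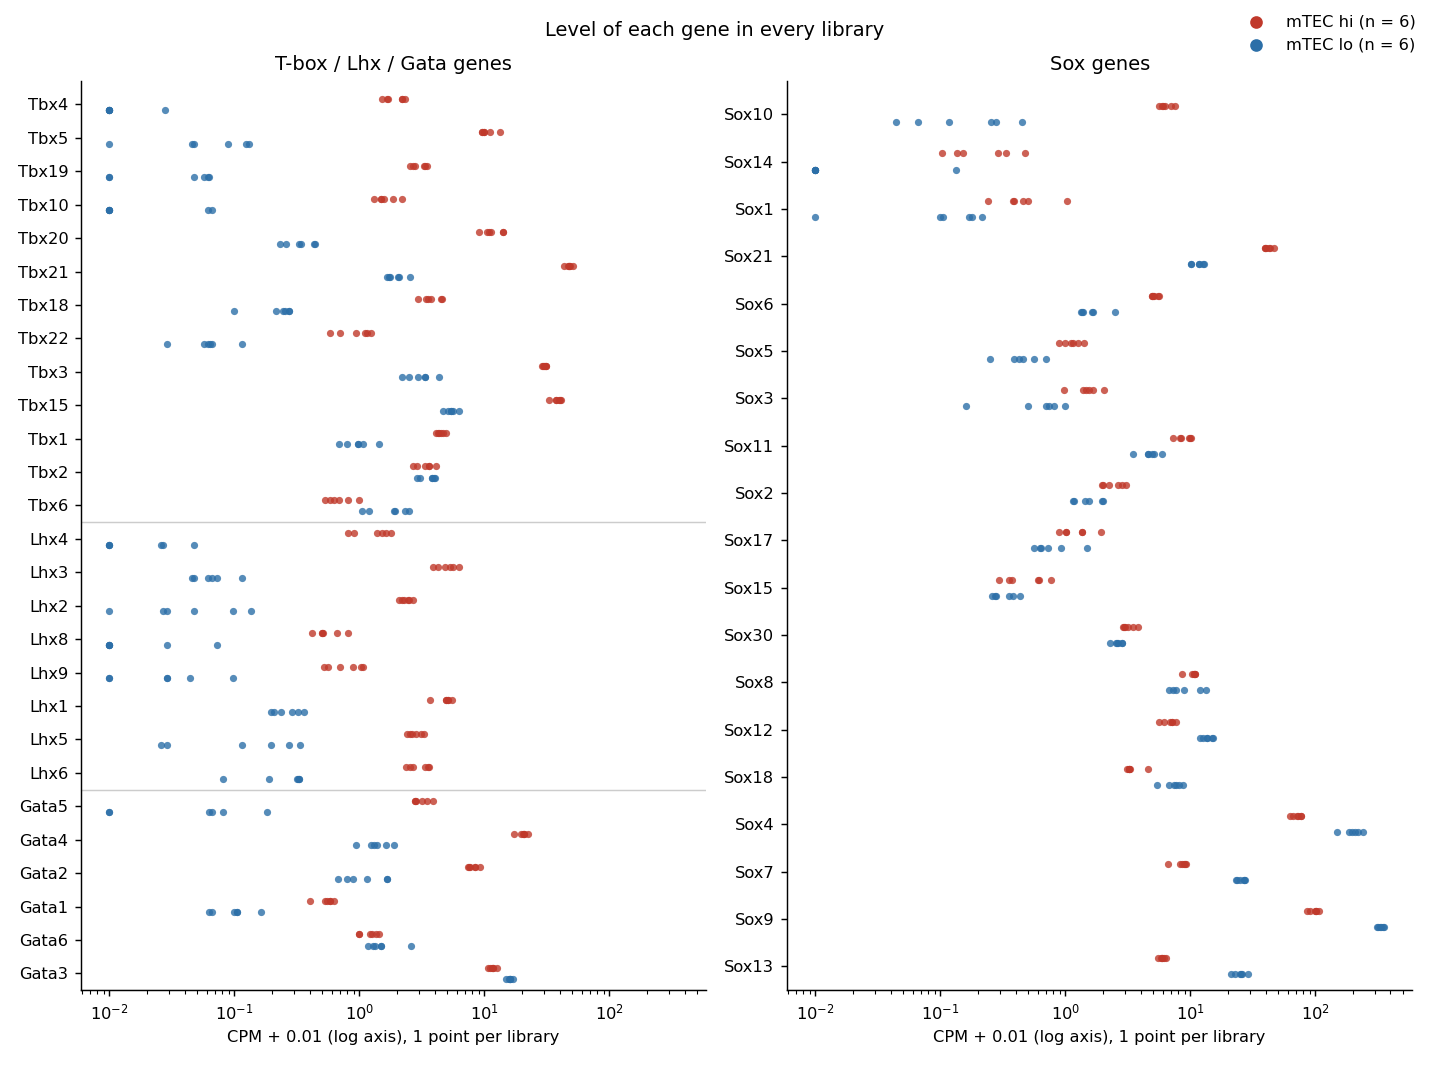
Each point is 1 library; the horizontal axis is CPM plus 0.01 on a log scale, and for each gene the mTEC hi libraries (red) stand above the mTEC lo libraries (blue). In 30 genes the red points lie entirely to the right of the blue points, in 8 entirely to the left, and in 8 they overlap.

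The families differed in how many members were called in each direction. All 8 Lhx genes rose, each by 8-fold or more, with a median log2 fold change of 4.96. Of the 13 T-box genes 11 rose, 9 of them by 8-fold or more, 1 fell and 1 was not called, with a median of 4.11. Of the 6 Gata genes 4 rose, 1 fell and 1 was not called, with a median of 2.70. The Sox family was split, with 11 of 19 genes higher, 6 lower and 2 not called, and a median of 0.62. Over all genes tested 45.6% were called higher and 34.7% lower, with a median of 0.20. The Sox shares, 57.9% higher and 31.6% lower, were the closest of the 4 families to these. A higher level in mTEC hi was part of how some of these genes passed the filter on low counts. They were Lhx2, Lhx3, Lhx4, Lhx8 and Lhx9, Tbx4, Tbx5, Tbx10, Tbx19 and Tbx22, Gata1 and Gata5, and Sox1 and Sox14. The family counts and medians are therefore descriptions. No test of the difference between families was run.

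**Figure D2:**
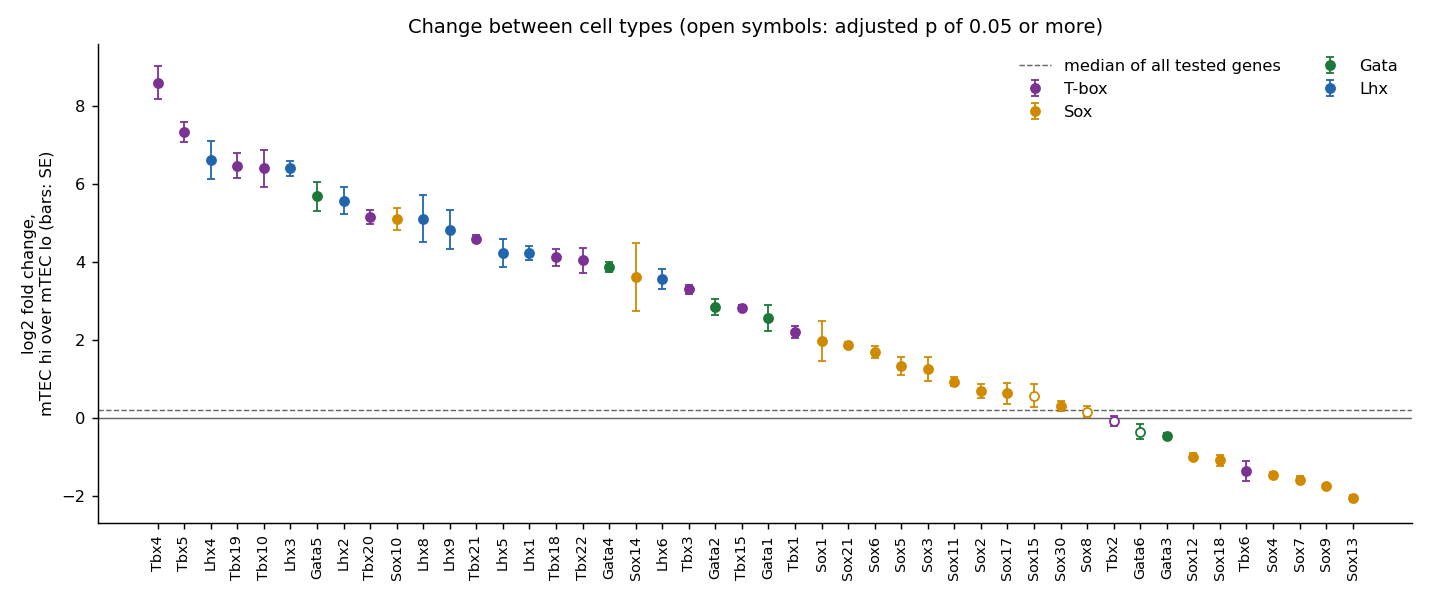
Points are the log2 fold changes of mTEC hi over mTEC lo with their standard errors, ordered by size and coloured by family; open symbols were not called and the dashed line is the median of all genes tested, 0.20. Blue points, the Lhx genes, all lie at 3.55 or higher, and 6 of the 8 called genes at the low end are Sox genes; the Tbx4 value rests on 1 read in mTEC lo.

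TPM, a level that allows for gene length, shows how much of this RNA each family held. TPM do not carry the scaling between libraries used for CPM, so differences between cell types in TPM can depart from those in CPM. The summed TPM of the T-box genes had a median of 83.8 in mTEC hi (range 76.3 to 86.9) and 7.21 in mTEC lo (5.54 to 8.86). For the Lhx genes it was 13.8 in mTEC hi (12.2 to 15.5) and 0.58 in mTEC lo (0.43 to 0.67). The Gata genes summed to 27.6 TPM in mTEC hi (25.6 to 29.3) and 9.01 TPM in mTEC lo (8.31 to 10.2). The Sox genes went the other way, with 166 TPM in mTEC hi (160 to 172) and 296 TPM in mTEC lo (269 to 325). Over all 46 genes the sum was 293 TPM in mTEC hi (278 to 298) and 314 TPM in mTEC lo (285 to 343), and the 2 ranges overlapped. A level of at least 1 TPM on average was reached by 35 genes in mTEC hi and by 14 in mTEC lo.

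Genes called higher were found at every level, and the 8 called lower at 1 CPM or more. Of the 11 genes with a mean below 1 CPM over the 12 libraries, 10 were called higher and 0 lower, against 59.8% higher and 8.64% lower among all genes of that level. Of these 11, 9 passed the filter through mTEC hi alone, so their direction was largely set by the filter and the count is a description. Of the 24 genes between 1 and 10 CPM, 19 were called higher and 2 lower, against 59.2% and 25.7% of all genes of that level. Among these 24, 5 passed the filter through mTEC hi alone (Gata5, Lhx2, Lhx3, Tbx5 and Tbx19), so a higher level was part of how they passed. Of the 11 genes at 10 CPM or more, 5 were called higher and 6 lower, against 25.5% and 62.7% of all genes of that level. The 5 called higher in this most abundant class were Tbx21, Gata4, Tbx3, Tbx15 and Sox21, with log2 fold changes of 4.59, 3.86, 3.29, 2.82 and 1.86. The 6 called lower were Gata3 and the Sox genes Sox4, Sox7, Sox9, Sox12 and Sox13, so the class went both ways.

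**Figure D3:**
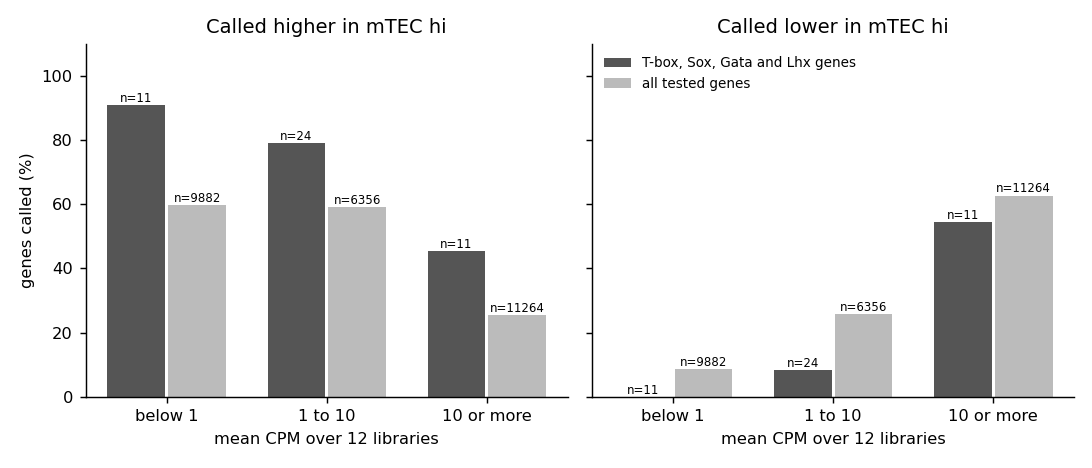
Bars give the percentage of genes called higher (left panel) or lower (right panel) in mTEC hi by mean level over the 12 libraries, dark for the 46 transcription factor genes and grey for all genes tested, with the number of genes over each bar. Dark bars run from 90.9% higher below 1 CPM to 45.5% higher at 10 CPM or more.

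Promoter sequences show that genes moving in either direction could be rich or poor in CpG. Of the 46 genes 33 had a promoter entry in RefSeq (GRCm38.p6), covering 250 bases before to 50 bases after the gene start. The other 13 were Gata4, Gata6, Lhx5, Sox3, Sox7, Sox9, Sox10, Sox17, Sox18, Tbx2, Tbx3, Tbx5 and Tbx15. A promoter was counted as CpG-rich with a GC content of at least 50% and a ratio of observed to expected CpG of at least 0.6. By that count 20 of the 33 promoters (60.6%) were CpG-rich, against 49.3% of 16864 promoters of genes tested and 34.1% of all 27018 promoters. Among genes called higher 15 of 26 were CpG-rich, and among genes called lower 4 of 5. The 4 sequences below are a CpG-rich and a CpG-poor promoter of a gene that rose and of a gene that fell; capitals mark each CG. Gata5 (chr2:180334630-180334929, minus strand) rose and has 26 CG steps, Sox13 (chr1:133424163-133424462, minus strand) fell and has 40, Tbx19 (chr1:165160724-165161023, minus strand) rose and has 7, and Tbx6 (chr7:126781233-126781532, plus strand) fell and has 7.
Gata5: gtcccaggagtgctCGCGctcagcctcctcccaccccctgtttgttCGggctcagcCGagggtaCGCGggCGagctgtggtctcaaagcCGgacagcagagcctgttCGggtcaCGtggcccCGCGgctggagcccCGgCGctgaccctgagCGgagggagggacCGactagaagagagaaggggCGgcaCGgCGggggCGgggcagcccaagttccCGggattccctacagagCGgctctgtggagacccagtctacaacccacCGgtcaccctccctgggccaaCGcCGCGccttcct
Sox13: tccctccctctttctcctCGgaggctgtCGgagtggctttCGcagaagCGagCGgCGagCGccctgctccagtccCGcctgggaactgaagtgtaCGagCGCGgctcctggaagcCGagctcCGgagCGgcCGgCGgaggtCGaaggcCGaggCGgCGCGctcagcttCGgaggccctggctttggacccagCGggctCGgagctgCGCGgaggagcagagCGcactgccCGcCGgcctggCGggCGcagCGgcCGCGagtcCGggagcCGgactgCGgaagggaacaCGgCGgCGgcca
Tbx19: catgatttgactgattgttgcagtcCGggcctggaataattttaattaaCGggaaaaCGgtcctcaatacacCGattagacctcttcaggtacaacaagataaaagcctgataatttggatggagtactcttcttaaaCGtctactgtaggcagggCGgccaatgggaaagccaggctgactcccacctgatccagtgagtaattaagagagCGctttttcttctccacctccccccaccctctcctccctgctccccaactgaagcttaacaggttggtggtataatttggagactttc
Tbx6: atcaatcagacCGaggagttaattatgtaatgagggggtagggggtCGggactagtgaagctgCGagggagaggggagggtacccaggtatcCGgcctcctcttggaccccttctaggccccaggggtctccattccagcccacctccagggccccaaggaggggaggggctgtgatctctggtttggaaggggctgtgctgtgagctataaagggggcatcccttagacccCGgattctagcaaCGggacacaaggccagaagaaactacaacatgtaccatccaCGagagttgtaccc

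One short word per family, typical of the sequences its proteins bind, was searched on both strands of these windows. The words were AGGTGT for T-box, AACAAT for Sox, AGATAA for Gata and TAATTA for Lhx proteins; none of them contains another, and TAATTA reads the same on both strands. No promoter held the word of its own family, in 9 T-box, 13 Sox, 4 Gata and 7 Lhx promoters. Among all promoters 13.9%, 10.9%, 11.4% and 5.31% held the T-box, Sox, Gata and Lhx word, in that order. The Tbx19 promoter printed above held the Sox, Gata and Lhx words, and the Tbx6 promoter held the Lhx word. These matches describe the letters in a window of 300 bases and say nothing of binding.

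Among T-box genes, factors of heart, pituitary and helper T cells rose by far more than 8-fold. Tbx21, the T-bet gene of type 1 immunity and the T-box gene of highest mean TPM, had 43.6, 47.3 and 51.2 CPM (lowest, median and highest of 6 libraries) in mTEC hi, against 1.66, 1.9 and 2.53 CPM in mTEC lo. The lowest mTEC hi library was far above the highest mTEC lo library, and the log2 fold change was 4.59 ± 0.08 (SE, adjusted p = 4.67e-18). Tbx5, a factor of heart and forelimb, had 9.58, 9.95 and 13.4 CPM in mTEC hi, against 0, 0.0583 and 0.12 CPM in mTEC lo. No mTEC lo library held more than 7 reads of it, the groups were far apart, and the log2 fold change was 7.32 ± 0.25 (adjusted p = 1.42e-14). Tbx20, which acts in the heart beside Tbx5, had 9.0, 11.1 and 14.1 CPM in mTEC hi, against 0.222, 0.325 and 0.433 CPM in mTEC lo. Its groups did not overlap either, with a log2 fold change of 5.14 ± 0.17 (adjusted p = 8.48e-15). Tbx19, the pituitary factor that acts on the Pomc gene, had 2.52, 3.04 and 3.49 CPM in mTEC hi, against 0, 0.0426 and 0.0529 CPM in mTEC lo. All mTEC hi libraries were above all mTEC lo libraries, where the gene had 0 to 3 reads, and the log2 fold change was 6.46 ± 0.32 (adjusted p = 2.89e-12).

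The other T-box genes ranged widely in level. Tbx3 (median 30.3 CPM in mTEC hi, against 3.14 CPM in mTEC lo) and Tbx15 (38.6 and 5.43 CPM), factors of limb and skeleton, had median levels per length of 11.7 and 18.7 TPM in mTEC hi, and log2 fold changes of 3.29 and 2.82. Tbx1, the pharyngeal factor lost in human DiGeorge syndrome, had median levels of 4.41 CPM in mTEC hi, against 0.965 CPM in mTEC lo, a log2 fold change of 2.19. Tbx10, the heart and ureter factor Tbx18 and the palate factor Tbx22 rose with log2 fold changes of 6.39, 4.11 and 4.03. Tbx6, a factor of the embryonic mesoderm that forms the somites, was the only T-box gene called lower. It had 0.522, 0.648 and 0.984 CPM in mTEC hi, against 1.04, 1.91 and 2.48 CPM in mTEC lo. The groups lay close but did not overlap, and the log2 fold change was -1.37 ± 0.25 (adjusted p = 7.83e-05).

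Neighbouring T-box genes did not always move together. Tbx4, a hindlimb and lung factor, and Tbx2 lie 44.5 kb apart on chromosome 11; this pair was singled out after its values were seen. Tbx4 had 735 reads summed over the mTEC hi libraries and 1 read over the mTEC lo libraries, a ratio of 636 after scaling (exact 95% interval 114 to 25100, counting error only; adjusted p = 2.54e-12). Tbx2 had 2.68, 3.48 and 4.13 CPM in mTEC hi, against 2.87, 3.8 and 4.03 CPM in mTEC lo. Its groups overlapped almost wholly and its log2 fold change was -0.09 ± 0.13 (adjusted p = 0.55), which became 0.23 with scaling by library size alone. Tbx3 and Tbx5, 147.9 kb apart on chromosome 5, both rose. Gata4 rose and Sox7 fell, 672.0 kb apart on chromosome 14.

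The Sox family held both the most abundant genes and most of the falls. Sox4, a factor of progenitor cells and the Sox gene of highest mean TPM, had 62.6, 72.6 and 77.6 CPM in mTEC hi, against 149, 203 and 242 CPM in mTEC lo. Every mTEC hi library was lower than every mTEC lo library, with a log2 fold change of -1.48 ± 0.08 (SE, adjusted p = 1.33e-11). Sox9, the master factor of cartilage and also a factor of epithelial progenitors, had 86.6, 100 and 108 CPM in mTEC hi, against 310, 331 and 355 CPM in mTEC lo. These groups were wide apart as well, with a log2 fold change of -1.76 ± 0.06 (adjusted p = 5.92e-15). Sox13, a SoxD factor known from gamma delta T cells, fell most in the family, to 5.47, 5.92 and 6.4 CPM in mTEC hi, against 21.2, 25.1 and 28.9 CPM in mTEC lo. Its groups did not overlap and its log2 fold change was -2.06 ± 0.08 (adjusted p = 5.11e-14). Together Sox4 and Sox9 made up 63.9% of the Sox TPM in mTEC hi (62.2% to 65.4%) and 84.6% in mTEC lo (82.7% to 86.6%). The other 17 Sox genes summed to 60.1 TPM in mTEC hi (58.3 to 61.2) and 47.2 TPM in mTEC lo (36.1 to 51.8). In TPM that order is the reverse of the family total. TPM do not carry the scaling used for CPM, and whether the order holds in CPM was not tested.

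Sox7 and Sox18, which form the SoxF group with Sox17 and act in blood vessels, also fell, with log2 fold changes of -1.59 and -1.10. Sox17 went the other way at 0.62 ± 0.26 (adjusted p = 0.0334), with overlapping groups, and that call was lost without any 1 of 5 libraries. The adjusted p was 0.0759 without hi KO replicate 1, 0.0637 without hi WT replicate 2 and 0.056 without lo WT replicate 3. It was 0.0907 without the hi library of conflicting labels titled WT and 0.0662 without the lo library of conflicting labels titled KO. With rounded RSEM counts it was 0.0686, and the Sox17 call was also lost at a 1.5-fold minimum. Of 8 endothelial markers 3 were called lower and 0 higher, beside 34.7% lower and 45.6% higher over all genes tested. Their sums were 56.3 to 81.3 CPM in mTEC hi, against 58.0 to 90.6 CPM in mTEC lo, with no marker at 0. Their part in the SoxF values was not tested. Tek fell by 0.75 on the log2 scale and Emcn by 0.65. Sox12, a SoxC gene like Sox4, had a log2 fold change of -1.01, while Sox11, the remaining SoxC gene, had 0.92.

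Of the 11 Sox genes that rose, Sox10 changed most. Sox10, which directs neural crest, glia and pigment cells, had 5.61, 6.17 and 7.52 CPM in mTEC hi, against 0.0342, 0.176 and 0.441 CPM in mTEC lo. The mTEC lo values spread widely but stayed below every mTEC hi library, and the log2 fold change was 5.10 ± 0.28 (SE, adjusted p = 9.6e-12). Sox21, a SoxB factor of neural precursors and epithelium, had the higher level per length (median 23.2 TPM in mTEC hi, against 3.83 TPM for Sox10), with 39.5, 41.7 and 46.6 CPM in mTEC hi, against 10.1, 11.7 and 12.9 CPM in mTEC lo. Its groups were clearly apart, with a log2 fold change of 1.86 ± 0.07 (adjusted p = 4.33e-14). Sox6, a SoxD factor of cartilage and muscle, had 4.92, 5.08 and 5.58 CPM in mTEC hi, against 1.32, 1.51 and 2.48 CPM in mTEC lo. No mTEC lo library reached the mTEC hi libraries, and the log2 fold change was 1.68 ± 0.15 (adjusted p = 7.57e-09). Sox3, a SoxB1 factor of neural precursors, had 0.963, 1.5 and 2.03 CPM in mTEC hi, against 0.15, 0.716 and 0.981 CPM in mTEC lo. Here the groups just overlapped, and the log2 fold change was 1.25 ± 0.30 (adjusted p = 0.00089). Its relatives Sox1, Sox2 and Sox14 also rose, with log2 fold changes of 1.96, 0.67 and 3.6, and so did Sox5 with 1.32. Sox14 and Sox2 had overlapping groups, and Sox14 had 94 reads in mTEC hi and 7 in mTEC lo, all 7 in lo KO replicate 2. Sox30, a factor of male germ cells, rose by 0.30 on the log2 scale (adjusted p = 0.0339). This call was lost without hi KO replicate 2, hi WT replicate 2, lo KO replicate 1 or lo WT replicate 2, with adjusted p-values of 0.0713, 0.0565, 0.0611 and 0.0629. It was lost as well in the 8 libraries of undisputed genotype (0.0501), without the filter (0.0529) and with the replicate block by title pair (0.0528). A 1.5-fold minimum also removed the Sox30 call. Sox8 (0.15, adjusted p = 0.333) and Sox15 (0.56, adjusted p = 0.0882) were not called; Sox8 was called without lo KO replicate 1, with a log2 fold change of 0.30 (adjusted p = 0.0416).

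Among Gata genes, Gata4 and Gata5 of heart and gut and Gata1 and Gata2 of blood rose, and the lymphoid factor Gata3 did not. Gata4, a partner of Tbx5 in the heart, had 17.3, 20.5 and 22.2 CPM in mTEC hi, against 0.924, 1.33 and 1.9 CPM in mTEC lo. The groups were far apart, and the log2 fold change was 3.86 ± 0.13 (SE, adjusted p = 1.67e-14). Gata5, a factor of heart and gut epithelium, had 2.76, 2.99 and 3.91 CPM in mTEC hi, against 0, 0.0547 and 0.174 CPM in mTEC lo. It was all but absent in mTEC lo, with a log2 fold change of 5.67 ± 0.37 (adjusted p = 1.31e-10). Gata2, a factor of blood stem cells and mast cells, had 7.39, 8.02 and 9.23 CPM in mTEC hi, against 0.667, 1.01 and 1.67 CPM in mTEC lo. Its groups were well separated, with a log2 fold change of 2.84 ± 0.20 (adjusted p = 2.67e-10). Gata1, the erythroid factor, had a median of 0.557 CPM in mTEC hi, against 0.092 CPM in mTEC lo, a log2 fold change of 2.56 ± 0.33 (adjusted p = 1.47e-06).

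Gata3 was the most abundant Gata gene by mean TPM over both cell types, although in mTEC hi alone Gata4 had the higher median, 12.6 TPM against 6.82 TPM. It had 10.7, 11.6 and 12.7 CPM in mTEC hi, against 14.9, 16 and 17.1 CPM in mTEC lo. On this scale the groups did not overlap and the log2 fold change was -0.47 ± 0.07 (adjusted p = 3.62e-06). The call was lost with scaling by library size alone, where the log2 fold change was -0.14 (adjusted p = 0.0528). The median TPM was 6.82 in mTEC hi, against 6.89 in mTEC lo. Gata6, a factor of gut and lung, had median levels of 1.24 CPM in mTEC hi, against 1.4 CPM in mTEC lo (log2 fold change -0.36 ± 0.20, adjusted p = 0.108). Without lo KO replicate 1 Gata6 was called lower, at -0.47 (adjusted p = 0.0318). Without lo KO replicate 2, its highest mTEC lo library, the log2 fold change was -0.14 (adjusted p = 0.49). It was -0.08 with rounded RSEM counts and -0.04 with scaling by library size alone.

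Lhx genes were nearly silent in mTEC lo. Lhx3, a pituitary and motor neuron factor and the Lhx gene of highest mean TPM, had 3.89, 5.06 and 6.3 CPM in mTEC hi, against 0.0359, 0.0539 and 0.106 CPM in mTEC lo. Every mTEC lo library held 2 to 6 reads, far below mTEC hi, and the log2 fold change was 6.39 ± 0.20 (SE, adjusted p = 3.58e-15). Lhx2, a factor of forebrain, eye and hair follicle, had 2.08, 2.36 and 2.66 CPM in mTEC hi, against 0, 0.0282 and 0.127 CPM in mTEC lo. The groups were again far apart, with a log2 fold change of 5.56 ± 0.35 (adjusted p = 8.11e-11). Lhx1, a factor of kidney and head formation, had 3.68, 5.03 and 5.52 CPM in mTEC hi, against 0.188, 0.254 and 0.353 CPM in mTEC lo. Lhx5, its closest relative and a forebrain factor, had 2.42, 2.73 and 3.26 CPM in mTEC hi, against 0.0158, 0.147 and 0.323 CPM in mTEC lo. Neither gene showed any overlap between cell types, and both had a log2 fold change of 4.22, with SE of 0.18 for Lhx1 and 0.37 for Lhx5. Lhx4, Lhx6, Lhx8 and Lhx9 rose with log2 fold changes of 6.60, 3.55, 5.10 and 4.82. Of these, Lhx6, a factor of cortical interneurons, had a median of 3.02 CPM in mTEC hi, against 0.312 CPM in mTEC lo.

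Counting detected genes at equal depth gives the same contrast per library. With every library thinned to 38791960 reads, 45.8 ± 0.408 of the 46 genes (SD, n = 6, range 45 to 46) reached 5 reads in mTEC hi, against 32.2 ± 1.47 (range 30 to 34) in mTEC lo. That is 42.5% more in mTEC hi, against 27.4% more over all genes, of which 26982 were detected on average in mTEC hi and 21175 in mTEC lo. Below 5 reads in every mTEC lo library were 10 genes: Gata5, Lhx2, Lhx4, Lhx8, Lhx9, Sox14, Tbx4, Tbx10, Tbx19 and Tbx22. The gap depended on the minimum, from 46 genes in mTEC hi and 40.2 in mTEC lo at 1 read to 36.3 and 18.3 at 50 reads. At 1 read, where every mTEC hi library held all 46 genes, the transcription factor genes gained 14.5% and all genes 26.1%, so the order of those shares turned round between 1 and 5 reads.

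**Figure D4:**
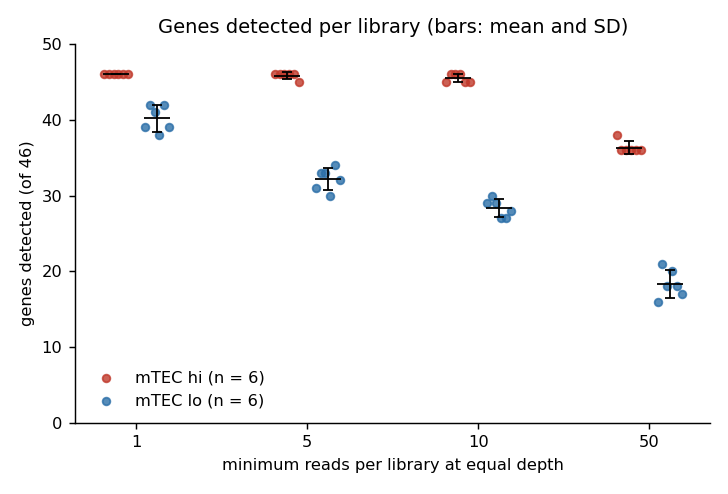
Each point is 1 library, with mTEC hi (red) left of mTEC lo (blue); the vertical axis is the number of the 46 genes with at least the given reads after thinning to equal depth, and black bars are the mean and SD. All mTEC hi libraries lie above all mTEC lo libraries at each minimum.

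Relatives that the name rule leaves out went both ways, and most listed genes for proteins that work with these factors were lower. Of 10 relatives 4 rose and 6 fell, with a median log2 fold change of -0.46, beside 45.6% higher, 34.7% lower and a median of 0.20 over all genes tested. T, the founding T-box gene brachyury, averaged 11 ± 1.19 CPM in mTEC hi, against 0.0488 ± 0.0369 CPM in mTEC lo (SD over n = 6 libraries). Its log2 fold change was 7.73. Lmx1a, a LIM-homeobox gene of midbrain neurons, had a log2 fold change of 6.88. Of 11 cofactor genes of LIM and Gata proteins 2 rose and 9 fell, with a median of -1.23. They summed to 240 to 272 CPM in mTEC hi, against 621 to 684 CPM in mTEC lo. Among all genes at 10 CPM or more 62.7% were called lower, and the cofactor genes were not matched by level. Lmo2, a bridging protein of Gata complexes, averaged 6.4 ± 0.988 CPM in mTEC hi, against 40.2 ± 1.78 CPM in mTEC lo, and Ldb2, which binds LIM domains, 4.09 ± 0.525 and 0.82 ± 0.235 CPM.

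Known target genes of several of the factors were mostly higher in mTEC hi. All 9 heart genes listed for Gata4 and Tbx5 rose, with a median log2 fold change of 3.20, led by the natriuretic peptide genes Nppa (5.92) and Nppb (5.24). Of 8 pituitary genes listed for Tbx19 and Lhx3, 7 rose and 0 fell. The hormone genes Prl and Fshb had no read in mTEC lo and were at least 26.5-fold and 23.9-fold higher in mTEC hi, taking 3 reads over the group as the floor. With those genes at their bounds the list's median log2 fold change was 4.65. This median falls between the 2 bounds, so it depends on the floor chosen. All 10 lymphocyte genes listed for Tbx21 and Gata3 rose, with a median of 2.95, although Gata3 itself was called lower (-0.47). They were led by the cytokine gene Il13 (130 ± 4.55 CPM in mTEC hi, against 0.679 ± 0.282 CPM in mTEC lo) and the chemokine receptor gene Ccr4. Of 10 neural crest genes listed for Sox10, 8 rose and 1 fell, with a median of 2.0, led by the pigment genes Tyrp1 (7.5) and Dct (7.19). Of 9 cartilage genes listed for Sox9, which itself fell, 6 rose and 3 fell, with a median of 0.58, led by Acan (6.94) and Comp (6.49). These counts, too, stand beside the 45.6% higher and 34.7% lower over all genes tested. No link between a factor and its listed genes was tested.

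Markers of other cells moved with several of these genes, and their part in the values above was not tested. Over all genes tested 45.6% were called higher and 34.7% lower, and the counts below stand beside these shares. Tbx21 and Gata3 are genes of lymphocytes. Of 12 thymocyte and T cell markers 6 rose and 0 fell, with sums of 171 to 314 CPM in mTEC hi, against 53.3 to 129 CPM in mTEC lo. The 6 that rose are near the share of all genes called higher. Of 7 markers of NK and innate lymphoid cells 5 rose and 0 fell, with sums of 57.6 to 61.7 CPM in mTEC hi, against 31.7 to 36.4 CPM in mTEC lo. All 6 B cell markers rose, with sums of 68.0 to 72.9 CPM in mTEC hi, against 11.4 to 17.8 CPM in mTEC lo. All 9 markers of dendritic cells and macrophages rose, with sums of 528 to 577 CPM in mTEC hi, against 64.6 to 90.2 CPM in mTEC lo. Gata1 and Gata2 are genes of erythroid and mast cells. All 8 erythroid markers rose, with sums of 31.2 to 37.2 CPM in mTEC hi, against 2.21 to 4.39 CPM in mTEC lo, and so did all 8 mast cell markers, with sums of 939 to 1000 CPM in mTEC hi, against 86.1 to 127 CPM in mTEC lo. Hdc made up 84.1% of that mast cell sum in mTEC hi. Of 7 markers of fibroblasts and pericytes 2 rose and 4 fell, with sums of 826 to 875 CPM in mTEC hi, against 913 to 1050 CPM in mTEC lo. No marker on any of these lists was at 0 in every library of a cell type. In bulk RNA, fewer cells of a type and less RNA per cell cannot be told apart.

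Other lists describe the states of the epithelial cells. Their counts stand beside the same 45.6% higher and 34.7% lower over all genes tested. All 7 mature mTEC genes rose, all 6 genes of immature or Ccl21 mTECs fell, and of 6 cortical epithelial genes 1 rose and 4 fell. All 7 tuft cell genes fell, with a median log2 fold change of -2.75. Of 7 neuroendocrine genes 2 rose and 4 fell. Of 6 microfold-type genes 5 rose and 1 fell. Of 5 general genes of thymic epithelium 2 rose and 3 fell.

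None of the 46 genes was called between KO and WT libraries. In mTEC hi 0 of 46 were called, beside 0.00375% of 26642 genes tested; 0 had an unadjusted p below 0.05, beside 3.45% of all genes, and DESeq2 also called 0. In mTEC lo 0 of 46 were called, beside 0.015% of all genes; 5 had an unadjusted p below 0.05, beside 11.3%, and DESeq2 called 0. For the difference of the KO effect between the cell types 0 of 46 were called, beside 0.0% of all genes; 4 had an unadjusted p below 0.05, beside 4.41%, and DESeq2 called 0. With 2 libraries a group, a p that misses the threshold does not show that the levels were equal.

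**Figure D5:**
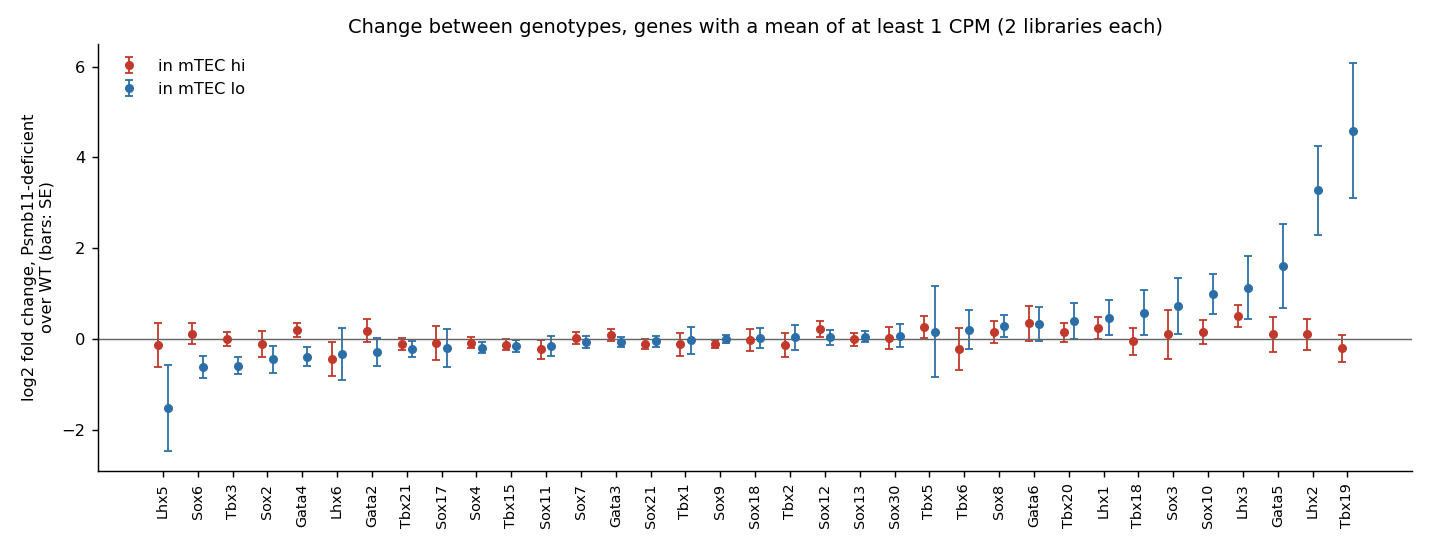
Points are log2 fold changes of KO over WT with standard errors for the 35 genes averaging 1 CPM or more, in mTEC hi (red, left) and mTEC lo (blue, right), from 2 libraries of each genotype and cell type. Most points lie near 0, and the widest blue bars belong to genes with few reads in mTEC lo, such as Tbx19 and Lhx2.

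Tbx3 had the lowest p of the T-box genes in mTEC lo. It had 2.96 and 2.17 CPM in lo KO libraries, against 4.36 and 3.32 CPM in lo WT libraries. Both KO libraries were below both WT libraries, with a log2 fold change of -0.59 ± 0.18 (SE, unadjusted p = 0.00543, adjusted p = 0.267). Tbx3 was picked by its low p, which favours such a separation, and its share over all genes was not counted. The lo library titled KO among the conflicting ones had 2.5 CPM and the one titled WT 3.37 CPM, so by title the 3 KO libraries all lay below the 3 WT libraries. In mTEC hi Tbx3 had 31.0 and 29.2 CPM in KO libraries and 30.0 and 30.6 CPM in WT libraries, and the difference of the KO effect was 0.59 ± 0.23 (adjusted p = 1). Without the filter on low counts Tbx3 was called in mTEC lo, at -0.58 (adjusted p = 0.0454), as 1 of the 46 genes. That setting called 660 of 40796 genes in mTEC lo, against 4 of 26642 in the main fit.

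The lowest p of each other family in mTEC lo did not pass the threshold either. Sox6 had 1.38 and 1.32 CPM in lo KO libraries, against 1.65 and 2.48 CPM in lo WT libraries (log2 fold change -0.62 ± 0.25, adjusted p = 0.388). Gata4 had 1.3 and 1.22 CPM in lo KO libraries, against 1.9 and 1.37 CPM in lo WT libraries (-0.39 ± 0.21, adjusted p = 0.496). In both genes the KO libraries lay below the WT libraries. Both were picked by their low p, which favours such a separation, and its share over all genes was not counted. By title the conflicting lo libraries lay on the same sides, with 1.35 CPM (KO) and 1.64 CPM (WT) for Sox6 and 0.924 CPM (KO) and 1.64 CPM (WT) for Gata4. Lhx2 had 8 and 5 reads in lo KO libraries, against 0 and 1 reads in lo WT libraries (adjusted p = 0.265), and 1 read in the library titled KO and 2 in the library titled WT among the conflicting ones. Tbx19 had 3 and 3 reads in lo KO libraries, against 0 and 0 reads in lo WT libraries, with 3 reads in the library titled KO and 2 in the library titled WT among the conflicting ones. Its difference of the KO effect had the lowest p of the 46 genes (unadjusted p = 0.00803, adjusted p = 1).

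In mTEC hi the lowest p of each family was also above the threshold. Lhx3 had 6.3 and 5.26 CPM in hi KO libraries, against 4.28 and 3.89 CPM in hi WT libraries. The groups did not overlap, at a log2 fold change of 0.51 ± 0.24 (unadjusted p = 0.0554, adjusted p = 1). By title the other KO library had 5.56 CPM and the other WT library 4.85 CPM, on the same sides. Sox1 had 1.02 and 0.492 CPM in hi KO libraries, against 0.445 and 0.233 CPM in hi WT libraries (1.14 ± 0.79, adjusted p = 1). Tbx4 had 2.19 and 2.29 CPM in hi KO libraries, against 1.68 and 1.66 CPM in hi WT libraries (0.44 ± 0.36, adjusted p = 1). Gata4 had 22.2 and 20.6 CPM in hi KO libraries, against 20.4 and 17.3 CPM in hi WT libraries (0.19 ± 0.16, adjusted p = 1). In each of these genes both KO libraries were above both WT libraries. The genes were picked by their low p, which favours such a separation, and its share over all genes was not counted. By title the conflicting hi libraries were nearly equal for Sox1, with 0.376 CPM (KO) and 0.37 CPM (WT). They lay the other way round for Tbx4, with 1.52 CPM (KO) and 2.17 CPM (WT), and for Gata4, with 19.8 CPM (KO) and 20.9 CPM (WT).

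Thymocyte and T cell markers had higher sums in KO libraries, although none was called. Their sum was 314 and 187 CPM in hi KO libraries, against 175 and 172 CPM in hi WT libraries, and 129 and 86.8 CPM in lo KO libraries, against 59.7 and 53.3 CPM in lo WT libraries. All 12 had a fold change above 0 in both cell types, with median log2 fold changes of 0.97 in mTEC hi and 0.99 in mTEC lo. Beside them, Tbx21 had log2 fold changes of -0.12 ± 0.13 in mTEC hi and -0.22 ± 0.18 in mTEC lo, and Gata3 0.09 ± 0.13 and -0.07 ± 0.12 (adjusted p = 1 for both in mTEC hi, 0.688 and 0.899 in mTEC lo). Of the 8 mast cell markers 7 had a fold change above 0 in mTEC lo, with a median log2 fold change of 1.45 and 0 called. Their sum was 109 and 95.7 CPM in lo KO libraries, against 120 and 116 CPM in lo WT libraries. Kit made up 85.9% of that sum in mTEC lo. The erythroid markers had a median of 0.40 in mTEC lo, with sums of 3.32 and 4.23 CPM in lo KO libraries, against 2.21 and 3.21 CPM in lo WT libraries. Their 1 call was the globin gene Hba-a1, which has a near-identical copy, with 39 and 39 reads in lo KO libraries, against 0 and 1 reads in lo WT libraries (adjusted p = 0.0208). Among the conflicting libraries Hba-a1 had 4 reads in the one titled KO and 22 in the one titled WT, so by title it went the other way there. Beside these lists, Gata1 had log2 fold changes of 0.09 ± 0.56 in mTEC hi and 0.02 ± 0.81 in mTEC lo, and Gata2 0.18 ± 0.26 and -0.29 ± 0.31 (adjusted p = 1 for both in mTEC hi, 1 and 0.766 in mTEC lo). In mTEC hi the mast cell and erythroid medians were 0.11 and 0.16, and the other marker lists had medians of -0.30 to 0.27 in mTEC hi and -0.23 to 0.57 in mTEC lo. The part of these markers in the genotype values was not tested.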

How the data were processed

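RNA was sequenced from 12 libraries of mouse mTECs. For each library the authors deposited whole-number read counts per gene, in a column that ignores the strand (used here) and a column per strand, and RSEM tables with expected counts, the estimated counts, and TPM. Named in the submitters' processing notes are RSEM 1.2.28, STAR 2.5.1b and CASAVA 1.8.2, and the build GRCh38, although the gene identifiers are of mouse; which annotation was used is not stated. Identifiers were matched to GENCODE M21 symbols (50376 of 50600). RSEM totals were 0.507 to 0.535 of the read totals.

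Low counts were removed by filterByExpr (minima of 10 per library and 15 in all), and the rest scaled by TMM and tested with edgeR 4.0.16 in R 4.3.3 (quasi-likelihood F test, Benjamini-Hochberg over all genes tested, threshold 0.05). The cell types were compared in all 12 libraries, allowing for genotype class, and KO and WT in 4 groups over the 8 libraries whose labels give 1 genotype, with 4 residual degrees of freedom. CPM are TMM-scaled. TPM are not, and they served, without a test, for levels across genes and for levels and sums set beside each other between cell types. A standard error is the log2 fold change divided by the square root of F. No 2 libraries of a cell type agreed within sampling noise (lowest chi-square per gene 7.77). The fits were tested on simulated data.

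The rule names, per family, up to 4 genes with the largest rise and 2 with the largest fall among called genes averaging 1 CPM or more, the gene of highest mean TPM, the gene of lowest p between genotypes, and 2 genes per list. The 46 genes and the 22 gene lists were chosen with earlier results of these data known, and 1 gene of a list is not reported here or counted in it. Alternatives were RLE factors, library size alone, DESeq2 1.42.0, no filter, rounded RSEM counts, each library left out, replicate blocks, genotype by title or by source name, the 8 libraries, a 1.5-fold minimum, separate fits per cell type and other read minimums. Exons of 15 of the 46 genes overlap another gene.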

Additional observations from a re-analysis of the deposited data

Results flagged for a closer look

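In 11 of 92 sets of 6 libraries (46 genes in 2 cell types) the highest or lowest library stood apart from the other 5 by Dixon's criterion, where chance gives about 1 in 20. In mTEC hi, Tbx5 was highest in KO replicate 1 at 13.4 CPM and Sox1 was highest in the same library at 1.02 CPM. Sox18 was highest at 4.55 CPM in the mTEC hi library of conflicting labels titled WT. Lhx1 was lowest in hi WT replicate 2 at 3.68 CPM, and Sox8 was lowest in hi WT replicate 3 at 8.6 CPM. In mTEC lo, Gata6 was highest in KO replicate 2 at 2.58 CPM, and Sox6 was highest in WT replicate 3 at 2.48 CPM. Tbx18 was lowest in lo WT replicate 2 at 0.0898 CPM, from 5 reads. Few reads lie behind the other sets: Sox14 at 0.123 CPM (7 reads) in lo KO replicate 2, Lhx8 at 0.0633 CPM (4 reads) in lo KO replicate 1 and Tbx4 at 0.018 CPM (1 read) in lo WT replicate 2.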

How the results depend on the processing

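Between mTEC hi and mTEC lo, 38 of the 46 genes kept their direction and their side of the threshold under all 21 alternatives; of 966 values 939 did, 18 lost the call, 6 gained it and 3 reversed. The reversals were of Tbx2, at 0.00 with RLE factors, 0.00 with DESeq2 and 0.23 with library size alone; the cause was not tested. Leaving out each library gave 32 to 34 genes higher and 8 to 9 lower. The median of the 46 genes was 2.49 above that of all genes as reported, 1.95 above without a filter, 2.31 to 2.46 above with each library left out and 2.48 to 2.61 above under the other alternatives. Deviations of same-titled mTEC hi and mTEC lo libraries correlated at -0.0012 to 0.0781, and those of other pairs at -0.0646 to 0.0463. These small values do not settle whether the libraries are paired by title. With the replicate block by title number 34 genes were higher and 8 lower, and by title pair 33 and 8. Sox15 was called with DESeq2 (0.66), RSEM counts (0.93) and library size alone (0.88). Between genotypes, 1 of the 46 genes (Tbx3) was called in mTEC lo without a filter, and 0 under each other alternative, the replicate block included; fitted alone, mTEC lo tested only 31 of them. Over all genes, 4 were called in mTEC lo, 158 with DESeq2, 660 without a filter, 9 with library size alone, 3 with the genotype from the title in 12 libraries, 12 when the replicate block was added to that, and 1 to 323 with 1 library left out (263 without lo KO replicate 1, 323 without lo KO replicate 2). In mTEC hi 1 was called, 3 with DESeq2, 42 without a filter and 0 to 2 with 1 library left out. For the difference 0 were called, 9 with DESeq2, 141 without a filter and 0 to 49 with 1 library left out. The gap in detected genes, 13.67 at 5 reads, was 5.83 at 1 read, 17.17 at 10 reads and 18 at 50 reads, and 13.23 to 14.03 with each library left out. The 2 libraries per genotype and few reads in mTEC lo limit the genotype values.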
